A study of Mus musculus with 9 samples.

Results

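Imprinted genes are genes of which a single parental copy is expressed. A set of 32 of them, chosen by symbol, was followed through all 9 bulk RNA-seq libraries of a study of mouse epiblast patterning in culture. All 32 were among the 23453 symbols with a deposited count. Of these, 10 are expressed from the maternal copy (H19, Igf2r, Meg3, Rian, Mirg, Zim1, Cdkn1c, Phlda2, Ascl2 and Grb10), 21 from the paternal copy, and the Gnas locus makes transcripts from both. Members were picked by symbol and grouped by the copy that textbooks give as expressed. The rule itself uses no measured value, but the set was drawn up with earlier results of these data known.

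The libraries came from cells in 3 states with 3 libraries each, and the labels describe the cells as EpiLCs of embryonic origin. EpiLCs (epiblast-like cells) were made from naive ESCs (embryonic stem cells) by 48 h in N2B27 medium with 1% KSR (a serum replacement), FGF2 and Activin A, and were harvested at that point. For aEpiLCs (anterior epiblast-like cells) the EpiLCs were kept for another 24 h in N2B27 basal medium, to which the study's methods add 1% KSR. For pEpiLCs (posterior epiblast-like cells) they were kept for 24 h with Activin A at 20 ng/ml and CHIR99021, an agonist of WNT/β-catenin signalling, at 3 µM, also with 1% KSR. In the paper's scheme the ESCs had before this been cultured with the cytokine LIF and small molecules that included CHIR99021. Whether imprints were intact in those ESCs, or in the cells made from them, was not measured. The paper calls the cells wild-type, and for these libraries names no cell line, sex, passage or strain. Nothing says whether the libraries of a state came from separate cultures, so the p-values below measure the spread between these libraries, which may be technical. The counts sum both parental copies, so expression of a single copy was not measured, and in bulk RNA fewer cells of a type and less RNA per cell cannot be told apart.

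An imprint is usually, but not for every imprinted gene, laid down as DNA methylation in the egg or the sperm. It often lies at a control region that regulates a cluster of neighbouring genes. Paternally and maternally expressed genes often lie side by side in such a cluster, and many clusters hold a long noncoding RNA (lncRNA). After fertilisation the marks are protected by factors such as ZFP57 and TRIM28 and copied by DNMT1, while the rest of the genome loses and then regains methylation around implantation. Many paternally expressed imprinted genes promote growth of the fetus and placenta and many maternally expressed ones restrain it.

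The total count per library lay between 20560564 and 23417917, and 3 counts, taken as the detection limit, corresponded to 0.130 to 0.143 CPM (counts of a gene scaled to a common library total and normalised for library composition over the 9 libraries). Epiblast markers summed to 4121 to 4790 CPM in the EpiLC and aEpiLC libraries. In pEpiLC they summed to 1801, 3063 and 2768 CPM. Dnmt3b made up most of the sum outside pEpiLC, with means of 2697.3 CPM in EpiLC, 2514.9 in aEpiLC and 1244 in pEpiLC. The means of Utf1 (317 to 76.2), Pou3f1 (203 to 32.2) and Otx2 (143 to 69.9 CPM) were also lower in pEpiLC than in aEpiLC. That of Pou5f1 was about the same (934 and 954 CPM), and that of Fgf5 was higher in pEpiLC (115 and 168 CPM). Primitive streak and mesoderm markers summed to at most 9.52 CPM outside pEpiLC and to 2674, 519 and 507 CPM in pEpiLC replicates 1, 2 and 3. Replicate 1 of pEpiLC stood apart from its partners. For 22% of the 15198 genes it differed by more than 1.5-fold from the mean of the other libraries of its state, against 7.11% to 12.3% in the other 8 libraries. The same held for 15 of 31 imprinted genes in that library, 9 higher and 6 lower. Markers of extraembryonic endoderm (8 of 10 in the table) summed to 70.9 CPM in it and to 7.95 to 17.5 CPM elsewhere. In it Gata6 had 46.5, Gata4 12.3 and Sox17 4.67 CPM, but Sox7 and Apoa1 had 0 CPM. Dab2 and Amn lay there below every EpiLC and aEpiLC library, and Cubn within their range. Fibroblast markers (6 of 8 in the table) summed to 71.9 CPM in it against at most 23.5 CPM elsewhere. Pdgfra had 51.6, Col1a2 10.2 and Twist2 0.81 CPM there, but Col3a1 had 0 CPM. Col1a1 and Thy1 lay there below every EpiLC and aEpiLC library. Trophoblast markers (7 of 9 in the table) summed to 223 to 399 CPM in pEpiLC and at most 13.9 CPM elsewhere. Eomes, which the streak list also holds, gave 216 to 381 CPM of that sum, and Elf5 was at or under the detection limit in all 9 libraries. The part of these markers in the results was not tested. Where leaving out pEpiLC replicate 1 changed a call of a named gene, both values are given.

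The stretches before the start of 4 of the 7 genes that were lower in pEpiLC than in aEpiLC (below) are shown first, with the short stretch that separates Peg3 from Usp29. ZFP57 binds the motif TGCCGC when its CpG is methylated. Matches to TGCCGC on either strand are in capitals (on the other strand they read GCGGCA), and the sequences are from RefSeq, GRCm38.p6, each written along the strand of its gene. The Mest stretch is chr6:30737800-30738049 (plus strand), that of Nnat chr2:157559828-157560077 (plus strand), that of Nap1l5 chr6:58907127-58907376 (minus strand) and that of Meg3 chr12:109540746-109540995 (plus strand), each of the 250 bases just before the start that RefSeq gives. The Mest start used lies inside the span of the gene, downstream of its first annotated start. Peg3 and Usp29 are transcribed away from each other, and the 163 bases between their starts are chr7:6730420-6730582, written along the Peg3 (minus) strand.
Mest: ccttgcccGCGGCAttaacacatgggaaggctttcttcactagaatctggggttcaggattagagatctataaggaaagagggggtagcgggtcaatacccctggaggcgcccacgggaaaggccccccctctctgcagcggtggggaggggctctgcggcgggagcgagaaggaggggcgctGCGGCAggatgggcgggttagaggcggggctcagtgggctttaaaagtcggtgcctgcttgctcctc
Nnat: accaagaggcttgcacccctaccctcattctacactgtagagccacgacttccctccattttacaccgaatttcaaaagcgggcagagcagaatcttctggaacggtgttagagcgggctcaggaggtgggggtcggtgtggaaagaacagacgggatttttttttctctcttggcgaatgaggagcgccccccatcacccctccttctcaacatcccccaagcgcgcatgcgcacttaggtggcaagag
Nap1l5: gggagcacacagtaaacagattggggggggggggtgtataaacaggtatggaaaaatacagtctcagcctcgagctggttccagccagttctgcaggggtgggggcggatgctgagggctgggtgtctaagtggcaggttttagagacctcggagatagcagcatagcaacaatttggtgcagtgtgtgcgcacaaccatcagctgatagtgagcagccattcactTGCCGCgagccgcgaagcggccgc
Meg3: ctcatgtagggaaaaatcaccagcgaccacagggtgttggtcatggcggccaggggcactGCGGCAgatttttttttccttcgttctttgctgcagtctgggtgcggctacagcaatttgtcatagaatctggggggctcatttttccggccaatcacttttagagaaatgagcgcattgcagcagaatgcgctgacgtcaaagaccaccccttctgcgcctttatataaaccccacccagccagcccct
Peg3 to Usp29: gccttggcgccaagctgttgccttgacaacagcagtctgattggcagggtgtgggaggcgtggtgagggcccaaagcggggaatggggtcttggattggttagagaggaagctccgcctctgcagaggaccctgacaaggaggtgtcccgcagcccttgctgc
The printed Mest stretch holds 2 matches and 14 CpGs, the Nap1l5 stretch 1 match and 10 CpGs, and the Meg3 stretch 1 match and 10 CpGs. Neither the Nnat nor the Peg3 to Usp29 stretch holds a match, although a longer window of Nnat that runs into the transcript holds 1. The 4 printed genes are those of the 7 with a window that holds a match. The windows of Rian and Mirg hold 0 matches, with 0 and 10 CpGs, and are not printed. Over windows of 300 bases around the start (250 before it and 50 after it), 10 of the 41 windows of 26 imprinted genes held TGCCGC (24.4%). The share among all 32851 windows was 11.6%. Of the 10, 2 are Mest windows that overlap almost fully. Counted by symbol, 9 of 26 (34.6%) held a match, against 13.1% of all 27025 symbols. The median window of these genes had 13 CpGs and the median of all windows 7, and the shares were not adjusted for CpG content. A match of these letters is a description and does not show binding or methylation, which were not measured in these libraries. Symbols without a window were H19, Peg13, Impact, Cdkn1c, Sgce and Peg10.

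States were compared gene by gene over the whole table with edgeR's quasi-likelihood test, and a gene was called when its Benjamini-Hochberg adjusted p was below 0.05 and its fold change at least 2-fold (log2 fold change of at least 1 in size). Fold changes below are on the log2 scale with their standard error (SE). Of the 32 genes, 31 were tested in every comparison, 17 were called in at least 1 and 14 in none. Of the 14659 genes tested in all 3 comparisons, 19.5% were called in at least 1. Airn, the lncRNA antisense to Igf2r, had 1 to 10 counts in each library and was tested in none; in a fit with no filter on low counts it was called higher in pEpiLC than in EpiLC (adjusted p = 0.028). Of the 17 called genes 7 are maternally and 10 paternally expressed. The comparisons share libraries, so their counts are not independent of each other.

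Between pEpiLC and aEpiLC, the comparison of posterior with anterior culture, 7 imprinted genes were lower in pEpiLC and 0 higher. Over all 15198 genes tested, 4.74% were called lower and 2.55% higher. The lower genes were 4 of 10 maternally expressed genes (H19, Meg3, Rian and Mirg) and 3 of 20 paternally expressed genes tested (Mest, Nnat and Nap1l5). The median log2 fold change was -0.11 for the maternally expressed genes, -0.16 for the paternally expressed ones and 0.01 for all genes. At an unadjusted p below 0.05 with the quasi-likelihood test, 4 of the 31 imprinted genes were higher and 14 lower, against 14.0% and 16.9% of all genes. DESeq2 called 1 gene higher (Zim1) and edgeR's likelihood ratio test 2 (Peg3 and Zim1). Without pEpiLC replicate 1, 0 were called higher and 4 lower (H19, Igf2, Mest and Nnat), against 2.51% and 4.90% of all genes in that fit. The medians were then -0.16 for the maternally expressed genes, -0.32 for the paternally expressed ones and 0.01 for all genes.

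**Figure D1:**
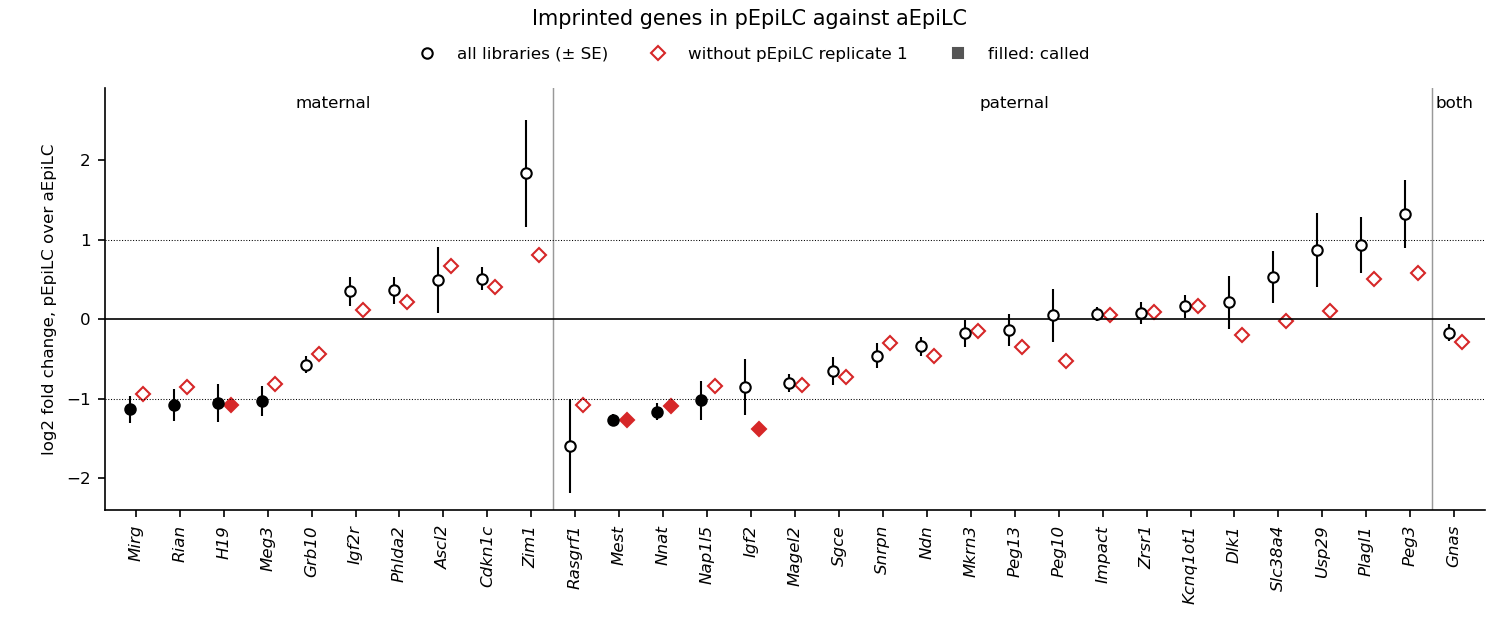
Log2 fold change of pEpiLC over aEpiLC for the 31 imprinted genes tested, ordered by size within genes expressed from the maternal copy, the paternal copy and both. Circles are the fit to 6 libraries with SE bars, diamonds the fit without pEpiLC replicate 1, filled symbols are called genes, and dotted lines mark a 2-fold change; the 7 filled circles all lie below -1, and 3 of them (H19, Mest and Nnat) keep a filled diamond.

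From EpiLC to aEpiLC, 7 imprinted genes rose and 2 fell. All 7 that rose are paternally expressed (Igf2, Peg10, Sgce, Ndn, Magel2, Plagl1 and Nnat), which is 7 of 20 tested, and both that fell are maternally expressed (Phlda2 and Ascl2), 2 of 10. Over all 15301 genes tested 7.25% were called higher and 5.24% lower. A further 13 imprinted genes had an adjusted p below 0.05 but changed by less than 2-fold, as did 34.1% of all genes. The median log2 fold change was 0.55 for paternally expressed genes, 0.09 for maternally expressed genes and 0.00 for all genes.

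From EpiLC to pEpiLC, 7 rose and 3 fell. The genes that rose were 6 paternally expressed ones (Peg3, Peg10, Sgce, Ndn, Magel2 and Plagl1) and the maternally expressed Zim1. Those that fell were Phlda2 and Ascl2, both maternally expressed, and the paternally expressed Nap1l5. Over all 15288 genes tested 7.71% were called higher and 8.13% lower. The median log2 fold change was 0.55 for the paternally expressed genes, -0.61 for the maternally expressed ones and 0.02 for all genes. Without pEpiLC replicate 1 the genes called higher were 6 (Magel2, Nnat, Peg3, Plagl1, Sgce and Zim1) and those called lower 4 (Ascl2, Dlk1, Phlda2 and Rasgrf1), against 7.05% and 8.33% of all genes. The medians were then 0.22 for the paternally expressed genes, -0.44 for the maternally expressed ones and 0.01 for all genes.

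**Figure D2:**
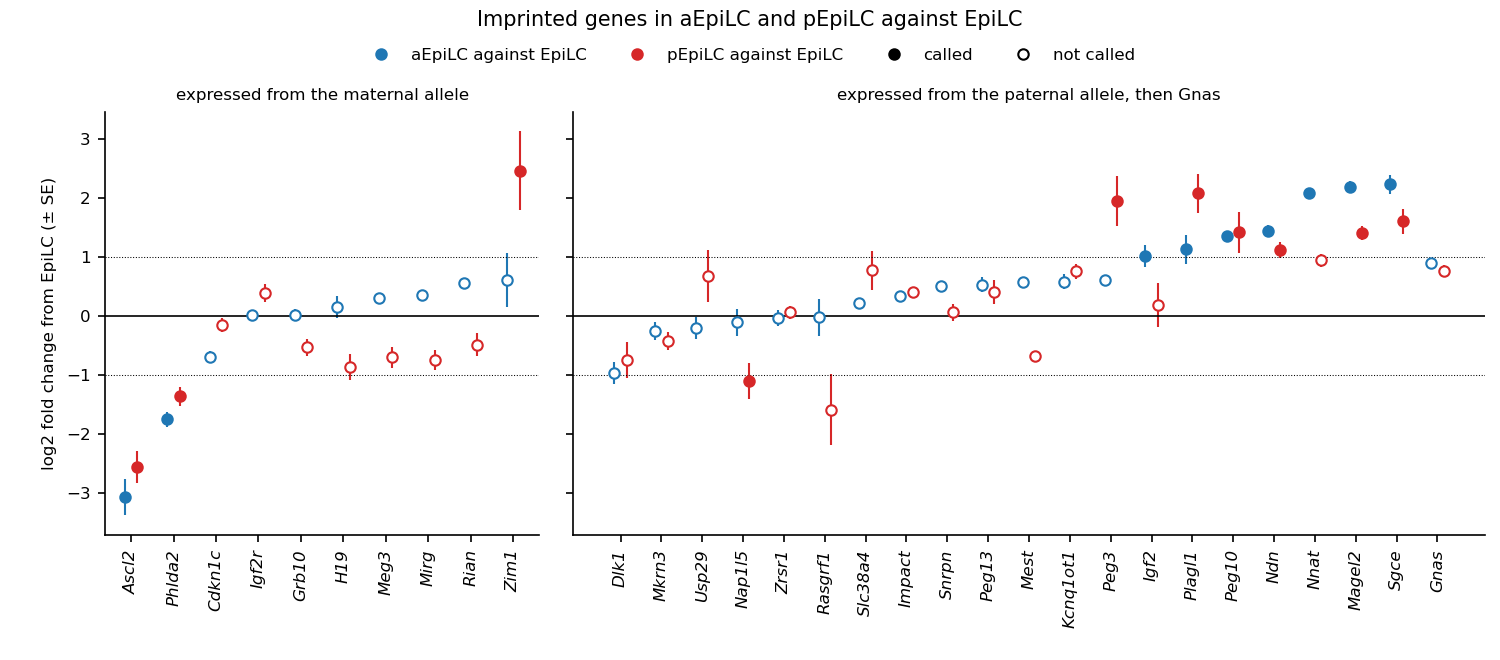
Log2 fold change from EpiLC, with SE bars, of aEpiLC (blue) and pEpiLC (red) for the imprinted genes tested, maternally expressed on the left and paternally expressed on the right with Gnas last. Filled symbols are called genes and dotted lines mark a 2-fold change; the filled blue symbols above 1 are all on the paternal side, and Phlda2 and Ascl2 are filled below -1 in both comparisons.

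**Figure D3:**
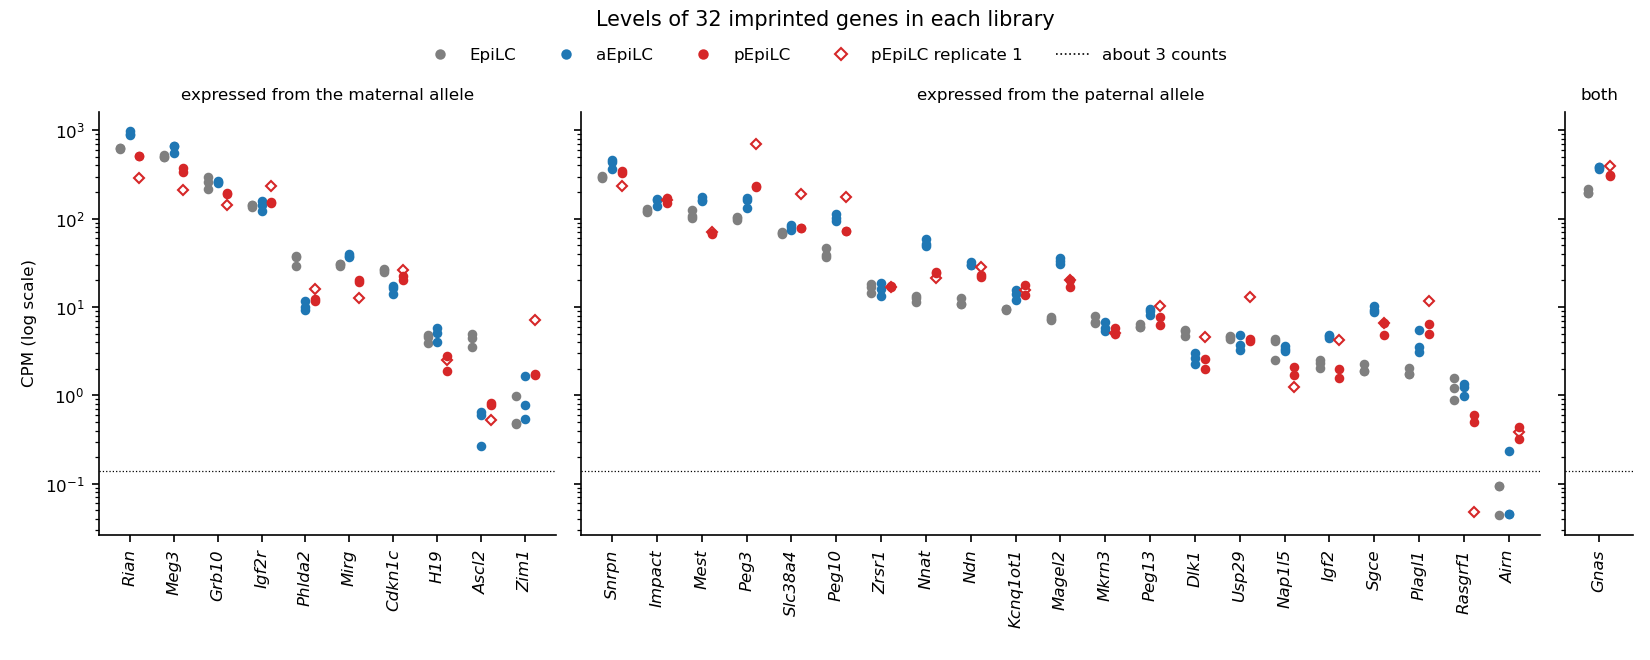
Level of each of the 32 imprinted genes in CPM (log scale) in each of the 9 libraries, with EpiLC in grey, aEpiLC in blue, pEpiLC in red and pEpiLC replicate 1 as an open diamond. Genes are ordered by their EpiLC mean within each class, the dotted line marks about 3 counts, and the diamond lies well away from the other pEpiLC libraries for Peg3, Zim1, Usp29, Peg10, Slc38a4 and Rasgrf1.

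The noncoding RNAs of the Dlk1-Meg3 domain on chromosome 12 are maternally expressed. Meg3, Rian and Mirg lie one after another on the plus strand and are thought to be made largely as 1 long transcription unit. Meg3 is a lncRNA with tumour suppressor activity. Meg3 (chr12:109541001-109571726, GENCODE vM21 on GRCm38) had 520, 497 and 502 CPM in EpiLC replicates 1, 2 and 3, 660, 662 and 557 CPM in aEpiLC and 213, 337 and 372 CPM in pEpiLC. Every pEpiLC library was thus below every EpiLC library and every EpiLC library below every aEpiLC library. Between pEpiLC and aEpiLC Meg3 fell by 1.03 ± 0.191 (SE) on the log2 scale, adjusted p = 0.0129. Without pEpiLC replicate 1, its lowest library, the log2 fold change was -0.82 with an adjusted p of 5.43e-05, under the 2-fold limit.

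Rian, the host transcript of many small nucleolar RNAs (chr12:109603940-109661716), had 631, 608 and 627 CPM in EpiLC, 906, 972 and 877 CPM in aEpiLC and 288, 509 and 509 CPM in pEpiLC. Its states did not overlap. Rian fell by 1.08 ± 0.201 (SE) on the log2 scale from aEpiLC to pEpiLC (adjusted p = 0.013), and by 0.85 without pEpiLC replicate 1 (adjusted p = 6.03e-06). Mirg, the host of a large cluster of microRNAs (chr12:109729764-109749460), had 28.8, 30.5 and 30.4 CPM in EpiLC, 36.6, 40.0 and 37.9 CPM in aEpiLC and 12.7, 19.3 and 20.3 CPM in pEpiLC. Again the 3 states did not overlap, and aEpiLC was highest. The log2 fold change of Mirg between pEpiLC and aEpiLC was -1.13 ± 0.169 (SE), adjusted p = 0.00546, and -0.94 without pEpiLC replicate 1 (adjusted p = 1.95e-05). In all 3 genes pEpiLC replicate 1 was 0.565 to 0.643 times the mean of its partners. Against EpiLC none of the 3 was called in either state. The log2 fold changes in aEpiLC were 0.31 for Meg3, 0.56 for Rian and 0.36 for Mirg, each with an adjusted p of at most 0.00236. In pEpiLC they were -0.70, -0.49 and -0.75 (adjusted p = 0.0167, 0.0751 and 0.0094), and for Rian -0.26 without pEpiLC replicate 1 (adjusted p = 0.000199).

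The calls of Meg3 and Rian between pEpiLC and aEpiLC also depended on the aEpiLC libraries. Meg3 was not called without aEpiLC replicate 1 (adjusted p = 0.0555) or 2 (adjusted p = 0.0646). Rian was not called without aEpiLC replicate 1, 2 or 3 (adjusted p = 0.0514, 0.0646 and 0.053). Over the 6 fits that each left out 1 library, of either state, the log2 fold changes ran from -1.19 to -0.82 for Meg3 and from -1.21 to -0.85 for Rian.

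Of the paternally expressed genes of the same domain, Dlk1 encodes a transmembrane protein that resembles Notch ligands. Dlk1 (chr12:109452823-109463336) had 5.46, 4.71 and 5.41 CPM in EpiLC, 3.05, 2.25 and 2.62 CPM in aEpiLC and 4.58, 2.00 and 2.57 CPM in pEpiLC. Every aEpiLC and pEpiLC library lay below every EpiLC library. Its log2 fold change from EpiLC was -0.97 ± 0.184 (SE) in aEpiLC (adjusted p = 0.000753), just under the 2-fold limit, and -0.75 ± 0.303 (SE) in pEpiLC (adjusted p = 0.08). Dlk1 was called lower in aEpiLC without EpiLC replicate 2 (-1.04) or without aEpiLC replicate 1 (-1.08), and in pEpiLC without pEpiLC replicate 1 (-1.16, adjusted p = 0.000275). Unlike Meg3, Rian and Mirg, Dlk1 was highest in EpiLC. The paternally expressed Rtl1 and Dio3 are not among the 32 genes, and are taken from the list of further imprinted genes. Rtl1, a retrotransposon-derived gene, had 5.92, 4.95 and 6.02 CPM in EpiLC, 6.71, 6.39 and 6.99 CPM in aEpiLC and 2.24, 3.26 and 4.09 CPM in pEpiLC. Its states did not overlap and stood in the same order as those of Meg3, Rian and Mirg. It was called lower in pEpiLC than in aEpiLC (-1.06 ± 0.229 SE, adjusted p = 0.0213), but not without any 1 of the aEpiLC libraries, of pEpiLC replicate 1 (-0.86) or of pEpiLC replicate 2. A maternally expressed transcript is antisense to Rtl1, and since the strand of the libraries is not given in the sources used here, reads of the 2 cannot be told apart. Dio3, which encodes a deiodinase that inactivates thyroid hormone, had 0.326, 0.660 and 0.747 CPM in EpiLC, 2.91, 3.33 and 5.43 CPM in aEpiLC and 0.334, 0.782 and 0.414 CPM in pEpiLC. Dio3 was called higher in aEpiLC than in EpiLC by 2.74 ± 0.343 (SE) and lower in pEpiLC than in aEpiLC by -2.91 ± 0.401 (SE), with adjusted p = 2.73e-05 and 0.0039.

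**Figure D4:**
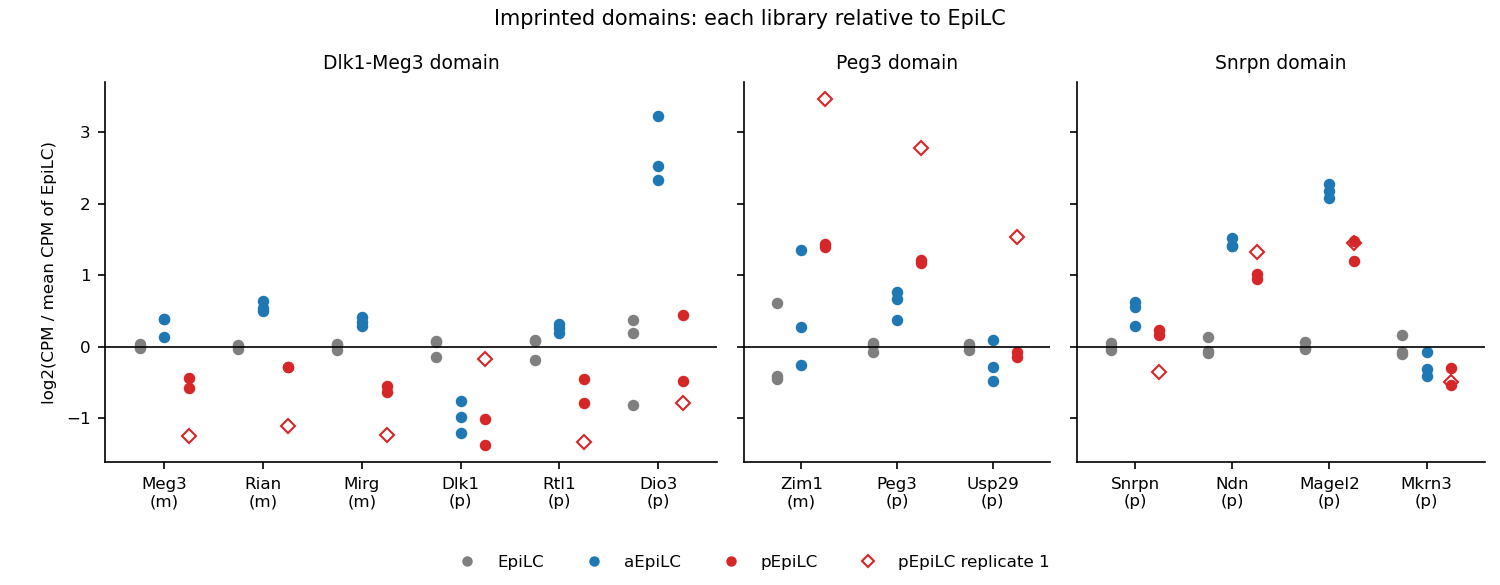
Each library's level relative to the EpiLC mean, as log2 of the CPM ratio, for genes of the Dlk1-Meg3, Peg3 and Snrpn domains, with EpiLC in grey, aEpiLC in blue, pEpiLC in red and pEpiLC replicate 1 as an open diamond. Maternally expressed genes are marked m and paternally expressed genes p; Meg3, Rian and Mirg lie above 0 in aEpiLC and below 0 in pEpiLC, while Ndn and Magel2 lie above 0 in every aEpiLC and pEpiLC library.

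The H19-Igf2 domain on chromosome 7 pairs a maternally expressed lncRNA with a paternally expressed fetal growth factor, and H19 is also the precursor of a microRNA. H19 (chr7:142575529-142578143) had 3.87, 4.62 and 4.88 CPM in EpiLC, 5.82, 4.0 and 5.06 CPM in aEpiLC and 2.53, 1.87 and 2.80 CPM in pEpiLC. The pEpiLC libraries lay below all others, and EpiLC and aEpiLC overlapped. H19 was called lower in pEpiLC than in aEpiLC, by -1.05 ± 0.237 (SE) on the log2 scale with adjusted p = 0.0254, and by -1.08 (adjusted p = 0.00916) without pEpiLC replicate 1. The call was lost without pEpiLC replicate 2 (-0.89, adjusted p = 0.0668) and without aEpiLC replicate 1, 2 or 3 (adjusted p = 0.097, 0.0566 and 0.0892). Igf2 (chr7:142650766-142666816) had 2.33, 2.03 and 2.55 CPM in EpiLC, 4.69, 4.45 and 4.87 CPM in aEpiLC and 4.19, 2.00 and 1.56 CPM in pEpiLC. In pEpiLC a single library, replicate 1, was near the aEpiLC level, and the other libraries were below every EpiLC library. Igf2 was called higher in aEpiLC than in EpiLC (1.02 ± 0.185 SE, adjusted p = 0.000553), at the edge of the 2-fold limit, since the log2 fold change was 0.99 without aEpiLC replicate 3 and 0.93 without EpiLC replicate 2. Between pEpiLC and aEpiLC it was not called (-0.85 ± 0.353 SE, adjusted p = 0.147), but it was called lower without pEpiLC replicate 1 (-1.38, adjusted p = 0.000858).

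The maternally expressed Igf2r encodes the receptor that clears IGF2 from the cell surface, and Grb10 an adaptor that dampens signalling of the insulin and IGF1 receptors. Igf2r (chr17:12682406-12769664) had 142, 141 and 137 CPM in EpiLC, 160, 143 and 122 CPM in aEpiLC and 234, 152 and 155 CPM in pEpiLC. It was called in no comparison, and its largest log2 fold change was 0.39 ± 0.159 (SE) for pEpiLC over EpiLC (adjusted p = 0.0812), 0.16 without pEpiLC replicate 1. Airn overlaps Igf2r on the opposite strand and was listed at 0.0439 to 0.0943 CPM in EpiLC, 0.045 to 0.235 CPM in aEpiLC and 0.322 to 0.435 CPM in pEpiLC. Grb10 (chr11:11930508-12038683) had 300, 257 and 218 CPM in EpiLC, 254, 269 and 263 CPM in aEpiLC and 144, 196 and 188 CPM in pEpiLC. Every pEpiLC library was below every other library. The log2 fold change of Grb10 in pEpiLC was -0.57 ± 0.112 (SE) against aEpiLC (adjusted p = 0.0152) and -0.53 ± 0.145 (SE) against EpiLC (adjusted p = 0.021), under the 2-fold limit in both.

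In the Kcnq1 domain of chromosome 7, the maternally expressed genes Phlda2 and Ascl2 fell from EpiLC to both later states. Ascl2 is a basic helix-loop-helix transcription factor needed for the trophoblast lineage of the placenta, and Phlda2 a pleckstrin homology protein that limits placental growth. Ascl2 (chr7:142966829-142969264) had 4.43, 3.49 and 5.01 CPM in EpiLC, 0.657, 0.270 and 0.598 CPM in aEpiLC and 0.524, 0.782 and 0.827 CPM in pEpiLC. It was lower in each of the 6 aEpiLC and pEpiLC libraries than in any EpiLC library. Ascl2 fell in both, with log2 fold changes of -3.07 ± 0.307 (SE) in aEpiLC (adjusted p = 3.46e-06) and -2.56 ± 0.271 (SE) in pEpiLC (adjusted p = 0.000491), from 74 to 114 counts per library in EpiLC to 6 to 18 counts. Phlda2 (chr7:143501545-143503150) had 28.8, 38.3 and 36.6 CPM in EpiLC, 9.15, 10.1 and 11.6 CPM in aEpiLC and 15.9, 11.6 and 12.3 CPM in pEpiLC. The EpiLC libraries did not overlap with the others. Its log2 fold changes were -1.75 ± 0.126 (SE) in aEpiLC (adjusted p = 1.86e-07) and -1.36 ± 0.161 (SE) in pEpiLC (adjusted p = 0.000773). The 7 markers of naive ESCs, from which EpiLCs were made, summed to 36.4 to 39.7 CPM in EpiLC. Their sum was 20 to 21.7 CPM in aEpiLC and 23.9 to 27.9 CPM in pEpiLC. Zfp42 had the largest means (19.1 in EpiLC, 7.61 in aEpiLC and 11.2 CPM in pEpiLC). Against EpiLC, the mean of Klf2 was higher in aEpiLC (1.52 to 3.13 CPM). Those of Esrrb (4.07 to 5.46) and Tbx3 (0.325 to 0.843 CPM) were higher in pEpiLC. The part of these markers in the decreases of Ascl2 and Phlda2 was not tested. Both calls from EpiLC held without each library in turn, for Ascl2 and for Phlda2, and neither gene was called between pEpiLC and aEpiLC (0.49, adjusted p = 0.475, and 0.36, adjusted p = 0.182).

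The other members of the domain changed less. Cdkn1c encodes p57, an inhibitor of cyclin-dependent kinases, and is maternally expressed. Cdkn1c had 27.0, 24.8 and 26.4 CPM in EpiLC, 17.5, 14.2 and 16.6 CPM in aEpiLC and 26.6, 20 and 22.3 CPM in pEpiLC. Its aEpiLC libraries lay below all others, with a log2 fold change from EpiLC of -0.69 ± 0.101 (SE, adjusted p = 9.83e-05). The paternally expressed lncRNA Kcnq1ot1, which silences its neighbours in cis, had 9.42, 9.47 and 9.32 CPM in EpiLC, 14.1, 15.8 and 12.1 CPM in aEpiLC and 15.6, 13.8 and 17.6 CPM in pEpiLC. Every library of either later state was above every EpiLC library, by 0.58 ± 0.124 (SE) in aEpiLC and 0.76 ± 0.127 (SE) in pEpiLC on the log2 scale (adjusted p = 0.00182 and 0.003), under the 2-fold limit. Kcnq1ot1 is antisense to Kcnq1, which had a mean of 0.0458 CPM over the 9 libraries.

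The paternally expressed genes that rose in aEpiLC and in pEpiLC include neighbours. Peg10 and Sgce lie head to head on chromosome 6. Peg10 derives from a retrotransposon and is needed for the placenta, and Sgce encodes epsilon-sarcoglycan, a membrane protein. Sgce (chr6:4674350-4747207, minus strand) had 1.91, 2.26 and 1.89 CPM in EpiLC, 9.15, 8.82 and 10.4 CPM in aEpiLC and 6.67, 4.87 and 6.57 CPM in pEpiLC. The 3 states did not overlap. Sgce rose by 2.23 ± 0.165 (SE) in aEpiLC (adjusted p = 2.32e-07) and by 1.6 ± 0.204 (SE) in pEpiLC (adjusted p = 0.001) on the log2 scale. Peg10 (chr6:4747306-4760517, plus strand) had 38.5, 36.6 and 46.6 CPM in EpiLC, 95.2, 114 and 101 CPM in aEpiLC and 177, 72.1 and 71.9 CPM in pEpiLC. Both later states lay above EpiLC, and pEpiLC replicate 1 was 2.46 times the mean of its partners. Peg10 rose by 1.35 ± 0.0939 (SE) in aEpiLC (adjusted p = 1.36e-07) and by 1.42 ± 0.348 (SE) in pEpiLC (adjusted p = 0.0137). The second call was lost without pEpiLC replicate 1 (0.85, adjusted p = 1.34e-06), EpiLC replicate 1 (adjusted p = 0.0564) or EpiLC replicate 2 (adjusted p = 0.061). Between pEpiLC and aEpiLC the log2 fold change of Peg10 was 0.05 with all libraries and -0.52 without pEpiLC replicate 1 (adjusted p = 0.00104).

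In the Snrpn domain of chromosome 7, the single-exon genes Ndn and Magel2, which encode proteins of the MAGE family, rose in both later states. Ndn (chr7:62346569-62350262) had 10.9, 10.7 and 12.5 CPM in EpiLC, 30.2, 30.1 and 32.5 CPM in aEpiLC and 28.3, 21.9 and 22.9 CPM in pEpiLC. Magel2 (chr7:62377010-62381640) had 7.70, 7.26 and 7.21 CPM in EpiLC, 35.8, 33.3 and 31.1 CPM in aEpiLC and 20.1, 20.5 and 17 CPM in pEpiLC. For both genes the 3 states did not overlap, with EpiLC lowest and aEpiLC highest. On the log2 scale Magel2 rose by 2.18 ± 0.101 (SE) in aEpiLC (adjusted p = 4.67e-09) and by 1.40 ± 0.121 (SE) in pEpiLC (adjusted p = 0.000227). For Ndn the log2 fold changes were 1.44 ± 0.0977 (SE) in aEpiLC (adjusted p = 1.13e-07) and 1.12 ± 0.134 (SE) in pEpiLC (adjusted p = 0.00081), and the second was 1.00, under the limit by less than the rounding, without pEpiLC replicate 1. The difference of Magel2 between pEpiLC and aEpiLC was -0.80 ± 0.11 (SE, adjusted p = 0.0039), under the 2-fold limit. The other genes of the domain were not called. Snrpn encodes an Sm protein of the spliceosome. Snrpn (chr7:59982495-60140219) had 287, 296 and 306 CPM in EpiLC, 363, 436 and 458 CPM in aEpiLC and 232, 349 and 330 CPM in pEpiLC. All aEpiLC libraries were above all others (0.50 ± 0.078 SE over EpiLC, adjusted p = 0.000167). Mkrn3, of the makorin family, lay between 6.68 and 7.97 CPM in EpiLC, 5.35 and 6.80 CPM in aEpiLC and 4.91 and 5.79 CPM in pEpiLC. The exons of Snrpn share 589 bases with the gene model Gm38393 on the same strand (mean of 47.2 CPM over the 9 libraries), and how RSEM split reads between them affects both.

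Nnat, Mest and Nap1l5, each paternally expressed from a domain of its own, were lower in pEpiLC than in aEpiLC. Nnat encodes a small membrane proteolipid of the endoplasmic reticulum, best known in neurons. Nnat (chr2:157560078-157562522) had 13.4, 11.4 and 12.6 CPM in EpiLC, 58.3, 51.4 and 48.6 CPM in aEpiLC and 21.5, 24.7 and 24.5 CPM in pEpiLC. Its 3 states did not overlap, with aEpiLC highest. Nnat rose by 2.08 ± 0.0949 (SE) from EpiLC to aEpiLC on the log2 scale (adjusted p = 4.2e-09) and was lower in pEpiLC than in aEpiLC (-1.16 ± 0.102 SE, adjusted p = 0.000582). Both calls held without each library in turn. In pEpiLC it was 0.94 ± 0.11 (SE) above EpiLC (adjusted p = 0.000744), and 1.01 without pEpiLC replicate 1. The 6 neural markers summed to 235 to 281 CPM in EpiLC, 538 to 620 CPM in aEpiLC and 171 to 265 CPM in pEpiLC. Nes had the largest means (98.1, 311 and 183 CPM). In aEpiLC the means of Tubb3 (57.3 to 109), Sox2 (60.6 to 101) and Pax6 (0.564 to 1.99 CPM) were higher too. Sox3 changed little (45.5 to 49.7 CPM) and Sox1 was not higher (1.21 to 0.968 CPM). In pEpiLC every marker but Nes had a lower mean than in EpiLC. The part of these markers in the levels of Nnat was not tested. Mest encodes a hydrolase-like protein of the endoplasmic reticulum and is widely expressed in mesoderm of the embryo. Mest (chr6:30723547-30748465) had 124, 108 and 102 CPM in EpiLC, 177, 157 and 161 CPM in aEpiLC and 71.0, 69.5 and 66.5 CPM in pEpiLC. The states did not overlap, and pEpiLC was lowest. Mest was lower in pEpiLC than in aEpiLC by -1.26 ± 0.0702 (SE, adjusted p = 0.000107), with log2 fold changes from -1.29 to -1.20 when each library was left out in turn. From EpiLC it was 0.57 ± 0.0764 (SE) in aEpiLC and -0.67 ± 0.0813 (SE) in pEpiLC (adjusted p = 4.89e-05 and 0.00085), under the 2-fold limit in both.

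Mest shares 912 bases of exon with Copg2 on the opposite strand, and Copg2 had 58.4 to 82.8 CPM over the 9 libraries with a log2 fold change of -0.17 ± 0.115 (SE) between pEpiLC and aEpiLC (adjusted p = 0.35). Nap1l5, an intronless gene inside Herc3 that resembles nucleosome assembly proteins, is at chr6:58905233-58907076. It had 4.38, 4.15 and 2.50 CPM in EpiLC, 3.66, 3.37 and 3.17 CPM in aEpiLC and 1.24, 2.09 and 1.70 CPM in pEpiLC. The pEpiLC libraries were below all others. Nap1l5 was called lower in pEpiLC than in aEpiLC (-1.02 ± 0.247 SE, adjusted p = 0.032) and than in EpiLC (-1.10 ± 0.3 SE, adjusted p = 0.0205), and both calls were close to the limits. Against aEpiLC the call was lost without pEpiLC replicate 1 (-0.84) or 3 or without any aEpiLC replicate (adjusted p = 0.0255 to 0.11). Against EpiLC it was lost without pEpiLC replicate 1 (-0.92) or 3 or without EpiLC replicate 1 or 2 (adjusted p = 0.0107 to 0.0776).

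In the Peg3 domain of chromosome 7, Peg3 and Zim1 rose from EpiLC to pEpiLC. Peg3 and Zim1 both encode zinc finger proteins, Peg3 from the paternal and Zim1 from the maternal copy, and Usp29, which shares the start region printed above with Peg3, belongs to the ubiquitin peptidases. Peg3 (chr7:6703892-6730431, minus strand) had 96.5, 105 and 103 CPM in EpiLC, 173, 161 and 131 CPM in aEpiLC and 699, 234 and 228 CPM in pEpiLC. The states did not overlap, with pEpiLC highest, and pEpiLC replicate 1 was 3.03 times the mean of its partners. Peg3 rose by 1.95 ± 0.422 (SE) from EpiLC to pEpiLC on the log2 scale (adjusted p = 0.00836), and by 1.21 without pEpiLC replicate 1 (adjusted p = 3.45e-10). Against aEpiLC the log2 fold change was 1.32 ± 0.422 (SE, adjusted p = 0.0753), which was not called, and 0.58 without pEpiLC replicate 1 (adjusted p = 0.00159). It was called without pEpiLC replicate 2 (1.58, adjusted p = 0.0485) or 3 (1.58, adjusted p = 0.0498), fits in which replicate 1 weighs more.

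Zim1 (chr7:6671269-6696450) had 0.979, 0.471 and 0.483 CPM in EpiLC, 1.64, 0.540 and 0.782 CPM in aEpiLC and 7.10, 1.74 and 1.70 CPM in pEpiLC. The pEpiLC libraries were above all others, and replicate 1 was 4.13 times the mean of its partners. Zim1 rose by 2.46 ± 0.665 (SE) from EpiLC to pEpiLC on the log2 scale (adjusted p = 0.0201), and by 1.44 without pEpiLC replicate 1 (adjusted p = 0.00608). The call was lost without EpiLC replicate 2 (adjusted p = 0.08) or 3 (adjusted p = 0.0788). Against aEpiLC the log2 fold change of Zim1 was 1.83 ± 0.675 (SE, adjusted p = 0.112), which was not called. It ran from 0.81 to 2.4 when each library was left out in turn, and was called in none of these fits. Usp29 (chr7:6730578-6967219, plus strand) had 4.38, 4.57 and 4.66 CPM in EpiLC, 3.71, 4.81 and 3.26 CPM in aEpiLC and 13.1, 4.09 and 4.32 CPM in pEpiLC. Only pEpiLC replicate 1 stood out, at 3.12 times the mean of its partners, and Usp29 was called in no comparison. Its log2 fold change from EpiLC to pEpiLC was 0.68 ± 0.441 (SE, adjusted p = 0.244) with all libraries and -0.09 without pEpiLC replicate 1.

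Plagl1, a zinc finger transcription factor on chromosome 10 that is paternally expressed and arrests the cell cycle, rose in both later states. Plagl1 (chr10:13060504-13131694) had 1.73, 1.74 and 2.02 CPM in EpiLC, 5.44, 3.10 and 3.54 CPM in aEpiLC and 11.6, 5.0 and 6.39 CPM in pEpiLC. Both later states lay above EpiLC and overlapped with each other. On the log2 scale Plagl1 rose by 1.13 ± 0.246 (SE) in aEpiLC (adjusted p = 0.00202), 0.87 without aEpiLC replicate 1, and by 2.08 ± 0.332 (SE) in pEpiLC (adjusted p = 0.00249), 1.66 without pEpiLC replicate 1.

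The Gnas locus, whose transcripts include the alpha subunit of the stimulatory G protein, had 196, 217 and 193 CPM in EpiLC, 364, 384 and 382 CPM in aEpiLC and 392, 314 and 301 CPM in pEpiLC. Every library of both later states was above every EpiLC library. Its log2 fold change from EpiLC was 0.90 ± 0.0617 (SE) in aEpiLC (adjusted p = 1.21e-07) and 0.76 ± 0.106 (SE) in pEpiLC (adjusted p = 0.00146), under the 2-fold limit in both. A gene-level count adds transcripts from both parental copies at this locus, so these values cannot be assigned to either.

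The remaining paternally expressed genes were tested and not called. The amino acid transporter gene Slc38a4 had 66.3 to 70.1 CPM in EpiLC, 75.3 to 84.5 CPM in aEpiLC and 189, 79.1 and 78.4 CPM in pEpiLC. Its log2 fold change from EpiLC to pEpiLC was 0.77 ± 0.324 (SE, adjusted p = 0.0878) and 0.22 without pEpiLC replicate 1. Impact, a regulator of translation under amino acid shortage, had 120 to 129 CPM in EpiLC, 140 to 165 CPM in aEpiLC and 149 to 172 CPM in pEpiLC. The EpiLC libraries were lowest (0.33 ± 0.0702 SE in aEpiLC and 0.41 ± 0.0669 SE in pEpiLC on the log2 scale). Rasgrf1, an exchange factor that activates Ras, had 1.21, 1.56 and 0.879 CPM in EpiLC, 0.985, 1.26 and 1.33 CPM in aEpiLC and 0.0477, 0.608 and 0.506 CPM in pEpiLC. Every pEpiLC library lay below every other library, with 1 to 14 counts, and replicate 1 was below the detection limit. The log2 fold change of Rasgrf1 in pEpiLC was -1.59 ± 0.588 (SE) against aEpiLC (adjusted p = 0.111) and -1.59 ± 0.603 (SE) against EpiLC (adjusted p = 0.0646). Without pEpiLC replicate 1 it was -1.08 against aEpiLC (adjusted p = 0.0731) and -1.09 against EpiLC (adjusted p = 0.0407, called). The lncRNA Peg13 lay between 5.99 and 6.48 CPM in EpiLC, 8.18 and 9.43 CPM in aEpiLC and 6.21 and 10.3 CPM in pEpiLC, and it was 0.53 ± 0.131 (SE) higher in aEpiLC than in EpiLC on the log2 scale (adjusted p = 0.00469). Zrsr1, which encodes a splicing protein related to U2AF, lay between 13.4 and 18.8 CPM in the 9 libraries and its states overlapped throughout. Its exons share 412 bases with Commd1, on the opposite strand, which had a mean of 50.0 CPM.

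Levels of different genes can be set side by side only per length. Per kilobase of merged exons, the EpiLC mean of Snrpn was 137 CPM per kb, the highest of the 32 genes. Rian (34.1), Phlda2 (30.8), Grb10 (28.4), Mest (28.2), Meg3 (28.0) and Impact (24.1 CPM per kb) followed. In aEpiLC the order began with Snrpn (194), Rian (50.4), Mest (41.8), Meg3 (34.6), Gnas (33.7) and Impact (30.3 CPM per kb), and Nnat stood at 28.9 against 6.82 in EpiLC. In pEpiLC Snrpn (141) was followed by Impact (31.5), Gnas (30.0), Peg3 (29.0) and Slc38a4 (27.1), and Rian and Meg3 stood at 23.9 and 17 CPM per kb. The places of Peg3 and Slc38a4 rested on pEpiLC replicate 1. Without it Snrpn (157), Impact (31.3), Rian (27.9), Gnas (27.5) and Grb10 (21.1 CPM per kb) came first, with Peg3 at 17.3 and Slc38a4 at 18.5 CPM per kb. Airn had at most 0.105 CPM per kb in any state.

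The list of further imprinted genes held 27 genes given as maternally and 14 given as paternally expressed, of which 20 and 12 were tested. They were listed whatever the tissue in which a single copy is expressed, and whether that holds in these cells was not measured. The shares of all genes called are those given above for each comparison. Of the maternal ones, 0 were higher and 2 lower (Dcn and Slc22a3) in pEpiLC than in aEpiLC, 4 higher (Calcr, Osbpl5, Phactr2 and Slc22a3) and 1 lower (Dcn) in aEpiLC than in EpiLC, and 2 higher (Asb4 and Phactr2) and 1 lower (Dcn) in pEpiLC than in EpiLC. Their median log2 fold changes were -0.20 (-0.13 without pEpiLC replicate 1), 0.26 and 0.16. Of the paternal ones, 0 were higher and 2 lower (Dio3 and Rtl1), 1 higher (Dio3) and 1 lower (Gab1), and 1 higher (Zdbf2) and 2 lower (Gab1 and Jade1), with medians of -0.01, -0.03 and -0.07. When pEpiLC replicate 1 was left out, the paternal medians were -0.13 against aEpiLC and -0.21 against EpiLC, and the only calls were Dio3 and Gab1, both lower. Dcn, which encodes the matrix proteoglycan decorin, was called lower in all 3 comparisons. It had 6.86, 4.81 and 7.25 CPM in EpiLC, 1.31, 2.11 and 1.66 CPM in aEpiLC and 0.238, 0.304 and 0.184 CPM in pEpiLC, with a log2 fold change of -2.77 ± 0.361 (SE) between pEpiLC and aEpiLC (adjusted p = 0.00303) and -4.64 between pEpiLC and EpiLC (adjusted p = 8.1e-05). Slc22a3, an organic cation transporter gene next to Igf2r, had 3.68, 5.56 and 2.64 CPM in EpiLC, 9.57, 12.6 and 9.29 CPM in aEpiLC and 0.0953, 2.87 and 2.44 CPM in pEpiLC. Its call in pEpiLC against aEpiLC (-2.53 ± 0.682 SE, adjusted p = 0.044) was lost without any 1 of the aEpiLC libraries or of pEpiLC replicates 2 and 3 (adjusted p = 0.0539 to 0.154). The log2 fold change was -1.97 (adjusted p = 2.42e-05) without pEpiLC replicate 1, its lowest library. Among the others called, Osbpl5 (1.80 ± 0.194 SE), Calcr (1.56 ± 0.141 SE) and Phactr2 (1.43 ± 0.186 SE) were higher in aEpiLC than in EpiLC, and Gab1 was lower (-1.44 ± 0.107 SE). Asb4 was called higher in pEpiLC than in EpiLC (3.21 ± 0.818 SE, adjusted p = 0.0159), but not without EpiLC replicate 2 or 3, and at 2.08 without pEpiLC replicate 1. Zdbf2 (1.06) and Jade1 (-1.15) were called in pEpiLC against EpiLC with all libraries and were at 0.84 and -0.91 without pEpiLC replicate 1.

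Of 16 genes that establish, protect or remove imprints, all 16 were tested against EpiLC, with 0 higher in either state, 2 lower in aEpiLC (Dnmt3l and Dppa3) and 4 lower in pEpiLC (Dnmt3a, Dnmt3b, Dnmt3l and Dppa3). Of all genes 7.25% were higher and 5.24% lower in aEpiLC, and 7.71% higher and 8.13% lower in pEpiLC. Without pEpiLC replicate 1, 4 of the list were lower in pEpiLC (Dnmt3a, Dnmt3l, Dppa3 and Zfp57), against 8.33% of all genes in that fit. The median log2 fold change of the list was -0.19 in aEpiLC and -0.28 in pEpiLC. Dnmt3l, the cofactor of the de novo DNA methyltransferases, had 70.0, 69.1 and 80.0 CPM in EpiLC, 6.24, 8.32 and 10.6 CPM in aEpiLC and 4.38, 6.08 and 9.33 CPM in pEpiLC. It fell by 3.12 ± 0.137 (SE) in aEpiLC (adjusted p = 3.07e-09) on the log2 scale, and its log2 fold change in pEpiLC was -3.44 ± 0.242 (SE, adjusted p = 0.000115). The de novo methyltransferase Dnmt3b had 2588.8, 2600.6 and 2355.4 CPM in aEpiLC and 744, 1595.1 and 1393.2 CPM in pEpiLC. Its call in pEpiLC against aEpiLC (-1.02 ± 0.244 SE, adjusted p = 0.0303) was the only call of the 15 genes tested there. Of all genes 4.74% were lower in that comparison. This call of Dnmt3b was lost without pEpiLC replicate 1 (-0.75) or 3 or without any aEpiLC replicate. Its call against EpiLC (-1.09) was lost without pEpiLC replicate 1 (-0.83). Zfp57, whose protein binds TGCCGC, had 56.2, 50.8 and 55.7 CPM in EpiLC, 31.2, 29.3 and 31.7 CPM in aEpiLC and 43.5, 21.6 and 25.8 CPM in pEpiLC. All 6 later libraries were below EpiLC, at a log2 fold change of -0.82 in both states (adjusted p = 1.24e-06 and 0.025), under the 2-fold limit. In pEpiLC this rested on replicate 1, without which Zfp57 was called lower (-1.17, adjusted p = 5.91e-08). Dnmt1, the maintenance methyltransferase, lay between 417 and 493 CPM in all 9 libraries.

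IGF signalling was followed because Igf2, Igf2r and Grb10 act in it. Of 13 further genes of the pathway 11 were tested. In pEpiLC against aEpiLC 1 was higher (Igfbp3) and 2 were lower (Irs2 and Igfbp5), and in pEpiLC against EpiLC 2 were higher (Irs1 and Igfbp3) and 2 lower (Igf2bp2 and Igfbp5). In aEpiLC against EpiLC 1 was higher (Irs1) and 0 lower. The shares of all genes called higher and lower were 2.55% and 4.74% in pEpiLC against aEpiLC, 7.71% and 8.13% in pEpiLC against EpiLC, and 7.25% and 5.24% in aEpiLC against EpiLC. The median log2 fold changes of the 11 genes were -0.23, 0.10 and 0.02 in these comparisons, and the second was -0.05 without pEpiLC replicate 1. Igfbp3, a binding protein that holds IGFs outside the cell, had 31.7, 35.7 and 29.8 CPM in EpiLC, 26.9, 23.4 and 21.7 CPM in aEpiLC and 198, 104 and 107 CPM in pEpiLC. All pEpiLC libraries were above all others, and Igfbp3 rose by 2.50 ± 0.26 (SE) on the log2 scale against aEpiLC (adjusted p = 0.00115), and by 2.14 without pEpiLC replicate 1. Irs2, an adaptor of the insulin and IGF receptors, had 102, 108 and 102 CPM in aEpiLC and 37.7, 52.5 and 55.6 CPM in pEpiLC (-1.10 ± 0.137 SE, adjusted p = 0.00249), and was not called without pEpiLC replicate 1 (-0.94). The receptor gene Igf1r had 48.5 to 54.3 CPM in EpiLC, 59.0 to 77.2 CPM in aEpiLC and 47.0 to 56.2 CPM in pEpiLC, and was called in no comparison.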

How the data were processed

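Bulk RNA-seq was analysed in 9 libraries of mouse cells, 3 each of EpiLC, aEpiLC and pEpiLC, grouped by GEO's labels. The authors mapped reads to GRCm38 with STAR 2.7.9a and deposited RSEM 1.3.1 expected counts per gene symbol, which were not normalised. How reads were cleaned, the annotation used for counting and whether libraries were stranded are not given in the sources used here. Expected counts were rounded to whole numbers. RSEM splits ambiguous reads between genes, which makes overlapping genes less certain.

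A comparison used the 6 libraries of its 2 states, in R 4.3.3 with edgeR 4.0.16 (TMM, filterByExpr, quasi-likelihood test) and Benjamini-Hochberg adjustment over all genes tested. Calls required an adjusted p below 0.05 together with a log2 fold change of 1 or more in either direction. The SE was taken as the size of the log2 fold change divided by the square root of F. The procedure was tested on simulated data. Positions are from GENCODE vM21, in which all 32 symbols matched a single gene.

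The members and lists were chosen with earlier results of these data known, so counts over them are descriptions. All 32 members are accounted for. Apart from cell type markers, other genes are named from 4 lists (further imprinted maternal and paternal genes, imprint maintenance, IGF signalling), at most 6 a list, called with a mean of at least 1 CPM, or where they overlap a member. Zfp57, Dnmt1, Igf1r and Dppa3 (under 1 CPM) were named after their values were seen. The alternatives were RLE size factors, DESeq2 1.42.0, the likelihood ratio test, no filter, at least 10 counts in every library, all 9 libraries in one fit, the replicate number as a block, no limit on fold change, and leaving out each replicate.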

Additional observations from a re-analysis of the deposited data

How the results depend on the processing

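Across the alternatives, the numbers of genes called, of imprinted genes called and the fold changes of the 31 genes tested were compared with the values reported. Between pEpiLC and aEpiLC the number of genes called was 1108, 2369 with no limit on fold change and 514 to 1148 without a replicate. The lowest counts came without aEpiLC replicate 1, 2 or 3 (648, 514 and 583). Imprinted genes called higher there were 0 in the reported fit, 1 with DESeq2, 2 with the likelihood ratio test, 1 with all 9 libraries in one fit, 1 with no limit on fold change and 0 to 1 without a replicate. Those called lower were 7, 10 with no limit on fold change, 8 with the likelihood ratio test and 3 to 6 without a replicate. Between aEpiLC and EpiLC the number of genes called was 1911, 1259 with at least 10 counts in every library and 7130 with no limit on fold change. Imprinted genes called higher were 7, or 18 with no limit, and lower 2, or 1 with at least 10 counts (Ascl2 was then not tested) and 4 with no limit. Between pEpiLC and EpiLC 2421 genes were called and 6759 with no limit, and imprinted genes called higher were 7 and 11, lower 3 and 8. The cause was not tested, apart from the limit on fold change and the filter, which by construction add or remove genes.

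Fold changes turned their sign in 20 of 1298 cases, none of them called in the reported fit and all but those of Usp29 (0.68 between pEpiLC and EpiLC) and Slc38a4 (0.53 between pEpiLC and aEpiLC) at most 0.21 in size. The lowest and highest log2 fold changes when a replicate was left out are given, with the library whose absence turned the sign. Between pEpiLC and aEpiLC these were Dlk1 (-0.20 to 0.44), Slc38a4 (-0.02 to 0.75) and Peg10 (-0.52 to 0.28) without pEpiLC replicate 1, Peg10 also without aEpiLC replicate 1 (-0.00398), Peg13 (-0.35 to 0.02) without pEpiLC replicate 2, Impact (-0.01 to 0.11) without aEpiLC replicate 3 and Zrsr1 (-0.03 to 0.21) without aEpiLC replicate 1. Between aEpiLC and EpiLC they were Igf2r (-0.07 to 0.12), Rasgrf1 (-0.21 to 0.19) and Zrsr1 (-0.17 to 0.08) without aEpiLC replicate 1, Nap1l5 (-0.33 to 0.04) and Zrsr1 (0.04) without EpiLC replicate 1, Rasgrf1 without EpiLC replicate 2 and Grb10 (-0.09 to 0.14) without EpiLC replicate 3. Between pEpiLC and EpiLC they were Igf2 (-0.34 to 0.45) and Usp29 (-0.09 to 0.96) without pEpiLC replicate 1, Snrpn (-0.05 to 0.22) without pEpiLC replicate 2 or 3 and Zrsr1 (-0.03 to 0.14) without EpiLC replicate 3.

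The replicate number as a block gave 1123 genes called between pEpiLC and aEpiLC, 1878 between aEpiLC and EpiLC and 2299 between pEpiLC and EpiLC. It called 2 imprinted genes higher in pEpiLC than in aEpiLC (Peg3, log2 fold change 1.11, adjusted p = 0.0474, and Zim1, 1.68, adjusted p = 0.0178), 7 lower, and turned the sign of Peg10 (-0.09). The labels do not say that a number marks a shared culture or day. Deviations from the state means correlated by 0.173, 0.116 and 0.060 between aEpiLC and pEpiLC libraries of the same number, and by at most 0.030 in the same-number pairs with EpiLC. Since neither the labels nor every same-number pair showed a link, the numbers were not taken to pair the samples. In the pairs of aEpiLC with pEpiLC, every library but pEpiLC replicate 3 correlated best with its own number. That library did so with aEpiLC replicate 2, at 0.062 against 0.060. Pairs of aEpiLC with pEpiLC libraries of unlike number correlated by -0.138 to 0.062.

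Depth limits Airn, Ascl2, Rasgrf1 and Zim1, which had under 40 counts in most libraries. With 3 libraries a state, calls near a limit depended on single libraries as given with each gene.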
